A study of Mus musculus with 8 samples.

Results

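Hepcidin and 9 other genes that move, store or sense iron were followed in the livers of miR-33 knockout and control mice. The 10 genes (Hamp, Tfrc, Tfr2, Trf, Fth1, Ftl1, Slc40a1, Hfe, Bmp6 and Tmprss6) were taken by symbol from the deposited table of 17810 genes, and all 10 had enough counts to be among the 12395 genes tested. The libraries came from 4 WT and 4 HKO livers of male littermates, 1 library per mouse by the animal numbers in titles and column headers. The descriptions of the WT samples all carry the same animal number, so separate WT mice rest on the titles and headers. The mice were put on CD-HFD, a high-fat diet that lacks choline, at 8 weeks of age. They were 5 months old after 3 months of it. Both genotypes share the diet, and no group on a control diet is part of this comparison. The authors report less steatosis in HKO than in WT livers on this diet, so steatosis and genotype go together here. HKO mice carried miR-33 loxP/loxP alleles and a transgene that expresses Cre recombinase from the albumin promoter (AlbCRE), which deletes miR-33 in hepatocytes, so endothelial cells, Kupffer cells and other cells of the same liver are meant to keep it. WT mice were littermates of HKO mice, and which alleles or transgenes they carried is not given in the sources used here. Mir33 itself was not analysed here, so each genotype rests on its label.

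Hepcidin, the peptide encoded by Hamp, is secreted by hepatocytes and lowers blood iron by binding ferroportin, the iron exporter encoded by Slc40a1, which is then degraded. Hepatocytes set Hamp transcription from the BMP-Smad pathway, in which BMP6 from sinusoidal endothelial cells acts through BMP receptors with hemojuvelin (Hjv) as co-receptor, while HFE and transferrin receptor 2 report the iron load of transferrin and the protease TMPRSS6 removes hemojuvelin from the cell surface. Interleukin-6 acting through STAT3 is the other well known input. Inside the cell, iron regulatory proteins bind hairpins called iron responsive elements, which blocks the translation of ferritin mRNA and stabilises the mRNA of the transferrin receptor Tfrc when iron is scarce.

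The authors deposited estimated counts, which were scaled to a common library total (CPM) and compared between genotypes with edgeR's quasi-likelihood test. Effect sizes are log2 fold changes of HKO over WT (log2 FC) with their standard errors (SE), and Padj is edgeR's p after Benjamini-Hochberg adjustment over all genes tested unless DESeq2 is named. Totals ran from 12174339 to 18319736 counts in WT livers and from 12509201 to 18735785 in HKO livers. The order numbers of the libraries ran in 1 block per genotype, so library order and genotype cannot be told apart. Hepatocyte markers were abundant in every liver, with Alb, which encodes albumin, between 47064 and 98815 CPM, and the 10 iron genes together took 1.18% to 1.60% of the scaled counts. Of all tested genes 5.03% had a Padj under 0.05 in either direction (206 genes, 1.66%, higher in HKO and 418 genes, 3.37%, lower), and with scaling to the total count alone the split was 119 higher and 621 lower. In bulk liver RNA, fewer cells of a type and less RNA per cell cannot be told apart.

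Of the 10 iron genes, Tfr2 was higher and Hfe was lower in HKO livers at a Padj under 0.05, and the other 8 did not pass. The livers of the 2 genotypes did not overlap for 4 of the 10 genes (Tfr2, Hfe, Fth1 and Ftl1), against 12.5% of all tested genes. With DESeq2, which called 8.18% of all tested genes, both ferritin chains were also lower and 4 of the 10 genes passed. Hamp had the largest fold change of the 10 genes, with an average of 423 CPM in HKO livers against 215 CPM in WT livers, and its values spread widely between mice of the same genotype.

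**Figure D1:**
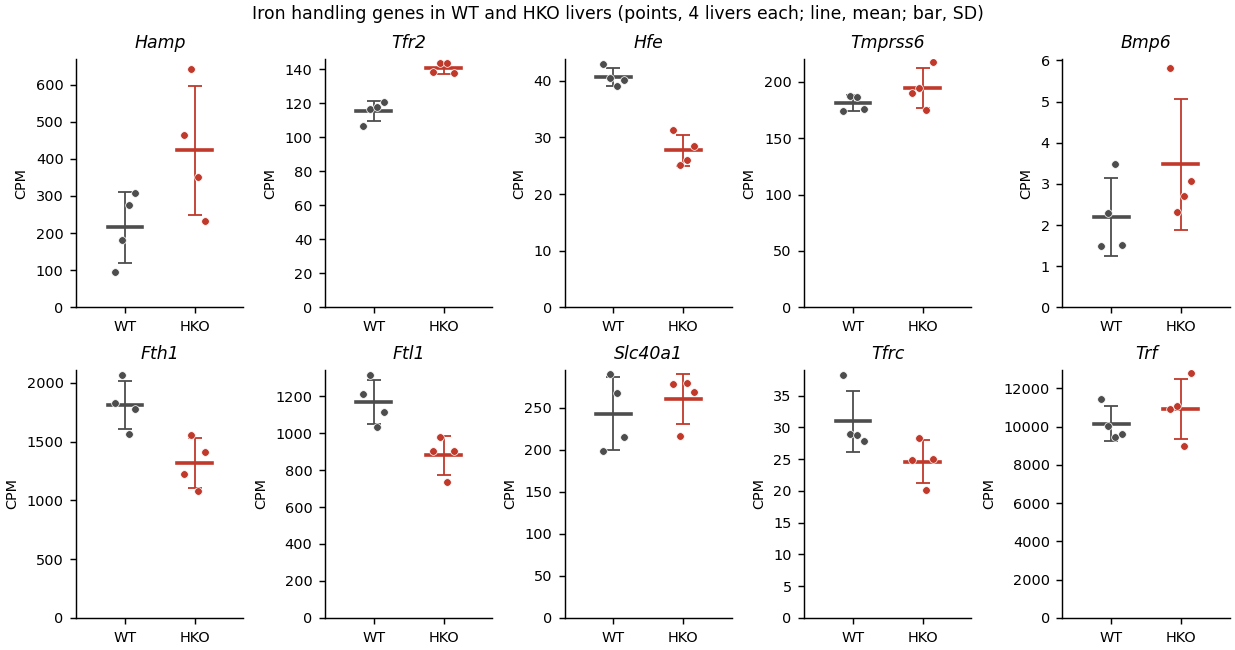
Level of each iron gene in CPM (vertical axis, from 0) in 4 WT livers (grey) and 4 HKO livers (red), with a point for each liver, a line at the mean and a bar of 1 SD. The points of the genotypes separate for Tfr2, Hfe, Fth1 and Ftl1 and overlap for Hamp, Tmprss6, Bmp6, Slc40a1, Tfrc and Trf.

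**Figure D2:**
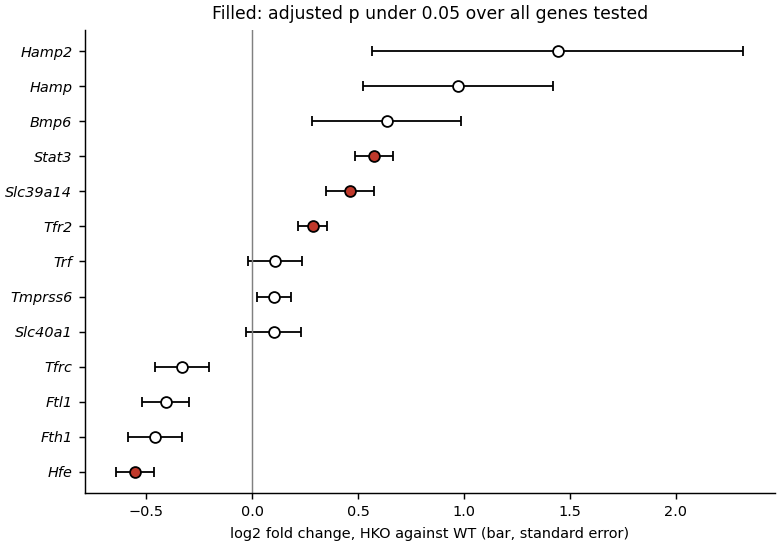
Log2 fold change between HKO and WT livers (horizontal axis, 0 marks no difference) with its standard error, for the 10 iron genes, the hepcidin paralog Hamp2, and Stat3 and Slc39a14, the other called genes of the iron pathway lists. Filled points had a Padj under 0.05, and run from -0.55 for Hfe to 0.57 for Stat3, while the larger values of Hamp and Hamp2 have the longest error bars.

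Hamp lies on chromosome 7 from 30942369 to 30944030 on the minus strand, in the GRCm38 coordinates that the table lists. In WT livers Hamp measured 96.1 CPM in WT 1, 182 in WT 2, 275 in WT 3 and 309 in WT 4. In HKO livers it measured 465 CPM in HKO 1, 642 in HKO 2, 352 in HKO 3 and 233 in HKO 4. Of the HKO livers, 3 stood above every WT liver, and HKO 4 lay among the WT livers. The means were 215 ± 96.1 CPM (SD, n = 4) and 423 ± 174 CPM (SD, n = 4), a log2 FC of 0.97 (SE 0.45), and Padj was 0.302. Without 1 liver at a time the log2 FC of Hamp lay between 0.70 and 1.20, and none of these fits passed the threshold.

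Mice carry another hepcidin gene, Hamp2, whose product is not thought to share the iron-regulating action of hepcidin. It lies beside Hamp, from 30922372 to 30924182 on the same strand, and the longest protein-coding transcripts of the genes measure 410 and 437 bases. Reads were counted by a method that splits those matching more than 1 gene, and both genes carry fractional counts in 7 of 8 livers. How far the genes can be told apart follows from their sequences. Of the 366 stretches of 45 bases in the Hamp transcript, 75 (20.5%) also occur in the Hamp2 transcript, and of the 336 stretches of 75 bases, 13 (3.87%) do. The last 75 coding bases, with the stop codon left out, encode the end of the protein, where the mature peptide lies. They differ at 14 positions, in capitals below, between Hamp at chr7:30942480-30942554 and Hamp2 at chr7:30922511-30922585 (GRCm38, minus strand, written 5′ to 3′).
Hamp: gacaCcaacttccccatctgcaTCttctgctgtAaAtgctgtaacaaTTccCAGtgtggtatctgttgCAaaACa
Hamp2: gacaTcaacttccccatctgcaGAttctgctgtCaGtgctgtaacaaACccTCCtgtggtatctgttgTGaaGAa

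Hamp2 was the lower of the pair in every liver. It measured 38.03, 25.2, 22.7 and 14.7 CPM in WT 1 to WT 4, and 15.4, 79.3, 14.6 and 164 CPM in HKO 1 to HKO 4. The values of HKO 2 and HKO 4 stood above all WT livers, and those of HKO 1 and HKO 3 lay within or just under the WT range. HKO 4, the HKO liver with the lowest Hamp, had the highest Hamp2, which made up 41.4% of the sum of both genes there against 3.20% in HKO 1, 11.0% in HKO 2 and 3.98% in HKO 3. In WT livers this share ran from 4.52% in WT 4 to 28.4% in WT 1. The log2 FC of Hamp2 was 1.44 (SE 0.88, Padj = 0.438), and it was 0.53 when HKO 4 was left out.

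With both genes summed, which removes any error in splitting reads between them, the genotypes did not overlap. The sum was 134, 207, 297 and 324 CPM in WT 1 to WT 4, and 480, 721, 367 and 397 CPM in HKO 1 to HKO 4. HKO 3, the lowest HKO liver, stood above WT 4, the highest WT liver. The log2 FC of the sum was 1.03 (SE 0.33), and its Padj of 0.143 did not pass the threshold.

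**Figure D3:**
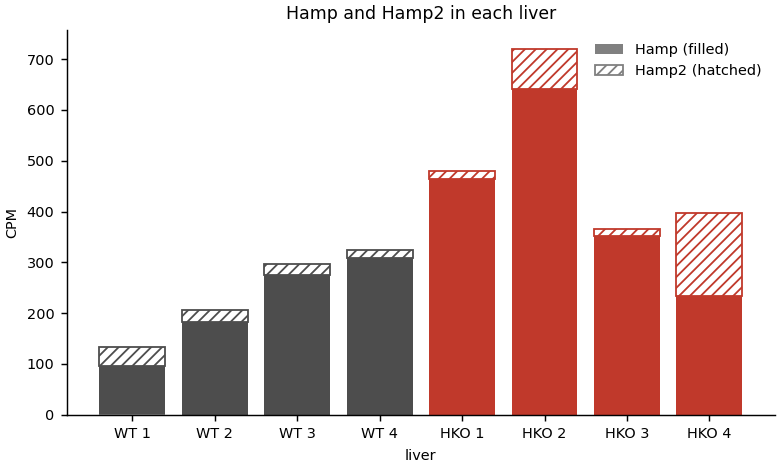
Stacked bars of Hamp (filled) and Hamp2 (hatched) in CPM for each WT liver (grey) and HKO liver (red). The whole bars of HKO livers, from 367 to 721 CPM, are all taller than those of WT livers, from 134 to 324 CPM, while the hatched share is largest in HKO 4 and WT 1.

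The 250 bases before the RefSeq start of each gene are shown because the BMP-Smad and STAT3 inputs meet there in hepcidin. They were read on GRCm38.p6, minus strand, at chr7:30944030-30944279 for Hamp and chr7:30924182-30924431 for Hamp2, with the matches to TTCNNNGAA, the STAT-type motif, and to GGCGCC, the motif described for BMP-responsive elements, in capitals. Both motifs read the same on either strand.
Hamp: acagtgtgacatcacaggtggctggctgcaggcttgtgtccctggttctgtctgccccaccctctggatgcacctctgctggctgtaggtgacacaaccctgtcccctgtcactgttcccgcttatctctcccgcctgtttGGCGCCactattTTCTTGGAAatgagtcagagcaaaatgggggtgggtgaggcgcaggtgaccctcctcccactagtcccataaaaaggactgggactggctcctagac
Hamp2: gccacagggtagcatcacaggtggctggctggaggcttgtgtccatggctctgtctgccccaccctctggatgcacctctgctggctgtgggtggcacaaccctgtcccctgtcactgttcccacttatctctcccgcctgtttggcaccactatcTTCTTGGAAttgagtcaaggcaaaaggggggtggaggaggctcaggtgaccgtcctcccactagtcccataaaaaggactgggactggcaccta
The Hamp window held TTCTTGGAA at position -97 and GGCGCC at position -109, counted to the first base of the match with -1 as the last base before the start. The Hamp2 window held TTCTTGGAA at -94 and no GGCGCC. Of 32851 RefSeq promoter windows of this length, 7.02% held TTCNNNGAA, 9.59% held GGCGCC and 0.368% held both.

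Hfe, an MHC class I-like protein that partners with the transferrin receptors and whose loss causes hereditary hemochromatosis, was lower in HKO livers. The gene lies on chromosome 13 from 23702034 to 23710855, minus strand. Its level was 42.9 CPM in WT 1, 40.5 in WT 2, 39.1 in WT 3 and 40.1 in WT 4, and 31.2, 25.2, 25.9 and 28.5 CPM in HKO 1 to HKO 4. Every HKO liver was below every WT liver, and the gap between the nearest livers of the genotypes was wider than the range of the WT livers. The mean fell from 40.6 ± 1.62 CPM (SD, n = 4) to 27.7 ± 2.76 CPM (SD, n = 4), 0.682 of the WT level. The log2 FC was -0.55 (SE 0.09, Padj = 0.00601, and 1.73e-05 by DESeq2). Hfe passed the threshold in all 19 alternative fits, which included each liver left out in turn, with Padj up to 0.0254.

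Tfr2, the transferrin receptor of hepatocytes that takes part in iron sensing, was higher in HKO livers, by a smaller amount. It lies on chromosome 5 from 137569840 to 137588082, plus strand. Tfr2 measured 107, 116, 118 and 121 CPM in WT 1 to WT 4 and 138, 144, 143.3 and 138 CPM in HKO 1 to HKO 4. The HKO livers lay close together and above all WT livers. The means were 115 ± 5.94 and 141 ± 3.31 CPM (SD, n = 4 each), 1.22 times the WT level, with a log2 FC of 0.29 (SE 0.07, Padj = 0.0373, and 0.00169 by DESeq2). This call was near the threshold. It was lost without any single liver other than WT 4, at Padj from 0.0529 (without WT 3) to 0.124 (without WT 1), with scaling to the total count (log2 FC 0.20, Padj = 0.205) and with no expression filter (Padj = 0.0591).

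Tmprss6, the liver protease that lowers hepcidin by cleaving hemojuvelin, lies on chromosome 15 from 78439667 to 78468635, minus strand. It measured 174, 188, 186 and 176 CPM in WT 1 to WT 4 and 190, 194, 175 and 218 CPM in HKO 1 to HKO 4, ranges that overlap. Its log2 FC was 0.10 (SE 0.08, Padj = 0.538). The remaining genes of the list of hepatocyte iron sensors were the hemojuvelin gene Hjv, the receptor gene Neo1 and the protease gene Furin, and none passed. Hjv measured 90.9, 92.0, 78.5 and 91.5 CPM in WT livers and 64.9, 72.7, 74.2 and 79.3 CPM in HKO livers, with a log2 FC of -0.28 (SE 0.09, Padj = 0.0940). It was named here after its values were seen, since HKO 4 alone reached into the WT range. Among the 6 iron sensing genes 1 was called higher and 1 lower, which is 33.3%, beside 5.03% of all tested genes. These calls are Tfr2 and Hfe, already given above. The list was chosen with earlier results of these data known, so this share is no independent result. The median log2 FC of the 6 genes was -0.08, beside 0.01 over all genes tested.

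Bmp6, the main iron-regulated ligand of the pathway, was the least abundant of the 10 genes. The gene lies on chromosome 13 from 38345716 to 38500315, plus strand. It measured 1.49, 2.30, 3.48 and 1.51 CPM in WT 1 to WT 4 and 5.80, 2.32, 2.70 and 3.06 CPM in HKO 1 to HKO 4. WT 3 and HKO 1 were the highest livers of their genotypes, and the genotypes overlapped. The log2 FC was 0.64 (SE 0.35, Padj = 0.358), and 0.27 without HKO 1. Bmp6 shares its span with Txndc5 on the other strand, a gene 101 to 138 CPM high, and whether strand was used in counting is not given in the sources used here, so some reads could belong to either gene. The summed level of 8 markers of liver sinusoidal endothelial cells (Stab2, Stab1, Lyve1, Clec4g, Fcgr2b, Oit3, Kdr and Pecam1) was highest in the same livers. It was 246 CPM in WT 3 and 81.6 to 117 CPM in the other WT livers, and 276 CPM in HKO 1 and 127 to 238 CPM in the other HKO livers. Not every marker followed the sum. Clec4g and Fcgr2b were higher in HKO 4 (36.2 and 46.7 CPM) than in HKO 1 (32.7 and 37.9 CPM). Lyve1 was nearly as high in WT 1 (19.3 CPM) as in WT 3 (20.2 CPM). None of the 8 markers passed the test between genotypes, and their part in the level of Bmp6 was not tested.

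Of the 11 tested ligands, receptors and Smads of the BMP pathway, 0 passed the edgeR threshold, with 2 at an unadjusted p under 0.05, a level that 19.8% of all tested genes reached, and 0 called by DESeq2. Of these, 10 of 11 log2 FC values were positive, beside 6402 of the 12395 tested genes. Their median was 0.21, beside 0.01 over all tested genes. The most abundant per kilobase of transcript were Smad4, the partner of the receptor-activated Smads, at a mean of 16.9 CPM per kb and a log2 FC of 0.12 (Padj = 0.477), and the receptor Bmpr1a at 12.1 CPM per kb and 0.10 (Padj = 0.510). Bmp2, another endothelial ligand chosen after its values were seen, was also highest in WT 3 (25.6 CPM) and HKO 1 (31.8 CPM). Among the 7 genes that BMP-Smad signals are known to raise, 0 passed by edgeR or DESeq2 and 2 had an unadjusted p under 0.05, beside the same 19.8%. Their median log2 FC was 0.19. Id2, the most abundant of them at 120 CPM per kb, had a log2 FC of 0.24 (Padj = 0.415), and Id3 one of 0.19 (Padj = 0.439).

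Stat3, the transcription factor through which interleukin-6 raises hepcidin, was higher in HKO livers. It measured 53.7, 63.0, 65.0 and 54.9 CPM in WT 1 to WT 4 and 85.8, 96.5, 81.5 and 88.7 CPM in HKO 1 to HKO 4, with no overlap. The log2 FC was 0.57 (SE 0.09, Padj = 0.00496), and Stat3 passed in all 19 alternative fits. It was the only called gene among the 6 tested of the IL-6 and STAT3 list (16.7%, beside 5.03% of all tested genes). Il6 itself was near absent, with 0 to 2 counts per liver, and was not tested. The most abundant per kilobase of the list were the kinase gene Jak1 (log2 FC 0.20, Padj = 0.414) and the receptor gene Il6st (0.18, Padj = 0.786). Socs3, a gene that active STAT3 is known to raise, had a log2 FC of -0.33 (Padj = 0.600) and was chosen after its values were seen.

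The mRNAs of both ferritin chains, which build the shell that stores iron, were low in all HKO livers. Fth1, the chain that oxidises iron, lies on chromosome 19 from 9980600 to 9985112, plus strand, and Ftl1, the light chain, on chromosome 7 from 45457944 to 45459887, minus strand. Fth1 measured 1833, 2063, 1569 and 1775 CPM in WT 1 to WT 4 and 1226, 1558, 1077 and 1415 CPM in HKO 1 to HKO 4. Ftl1 measured 1210, 1314, 1035 and 1113 CPM in WT 1 to WT 4 and 904, 980, 733 and 901 CPM in HKO 1 to HKO 4. In both genes the lowest WT liver was WT 3 and the highest HKO liver was HKO 2, and these came close to each other without crossing. WT 2 was the highest and HKO 3 the lowest of all livers in both.

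Fth1 averaged 1810 ± 203 CPM (SD, n = 4) in WT livers and 1319 ± 211 CPM (SD, n = 4) in HKO livers, which is 0.729 of the WT level. The log2 FC of -0.46 (SE 0.13) had a Padj of 0.0643, and of 0.0105 by DESeq2. Ftl1 averaged 1168 ± 121 and 880 ± 104 CPM (SD, n = 4 each), 0.753 of the WT level, with a log2 FC of -0.41 (SE 0.11) and a Padj of 0.0581, or 0.00856 by DESeq2. By the main test neither ferritin gene passed. Both passed with scaling to the total count (Padj = 0.0340 for Fth1 and 0.0293 for Ftl1), and Fth1 passed without HKO 2 (Padj = 0.0466). Over the leave-one-out fits the log2 FC values ran from -0.55 to -0.37 for Fth1 and from -0.46 to -0.33 for Ftl1. Both genes have processed copies in the mouse genome, the table analysed here lists 0 rows for such copies, and how reads matching them were counted is not given in the sources used here, so the levels are uncertain to that extent.

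The ratio of Fth1 to Ftl1 needs no scaling between libraries. It was 1.51, 1.57, 1.52 and 1.59 in WT 1 to WT 4 and 1.36, 1.59, 1.47 and 1.57 in HKO 1 to HKO 4. The log2 ratio was lower by a mean of 0.05 in HKO livers, with p = 0.457 by an exact permutation test, two-sided, over all 70 ways to allocate the 8 livers (0.457 after Benjamini-Hochberg adjustment over 3 ratios), while each chain on its own differed by 0.41 or more. The other genes of the ferritin list were Pcbp1 and Pcbp2, chaperones that deliver iron to ferritin, and Ncoa4, which carries ferritin to lysosomes. Their log2 FC values were -0.08, 0.04 and 0.04, and none passed.

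Of the 10 genes, 4 carry a match to the iron responsive element in the longest UTR of their GENCODE M21 transcripts. A match needed the core, CNNNNNCAGTG, and 5 paired stem bases on either side of the loop. These elements are shown because ferritin and Tfrc, which share them, answer to iron in opposite ways. Each is 30 bases, written 5′ to 3′ on GRCm38, with the bulged C and the CAGTG of the loop in capitals. Fth1 (chr19:9982731-9982760, plus strand), Ftl1 (chr7:45459779-45459808, minus strand) and Slc40a1 (chr1:45925465-45925494, minus strand) hold 1 element each in the 5′UTR. In Tfrc the search found 4 in the 3′UTR, at chr16:32631218-32631247, chr16:32631597-32631626, chr16:32631662-32631691 and chr16:32631709-32631738, plus strand. Elements with an unpaired base among these stem bases were not searched for, so any gene may hold more.
Fth1: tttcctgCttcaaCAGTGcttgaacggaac
Ftl1: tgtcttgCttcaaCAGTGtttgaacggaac
Slc40a1: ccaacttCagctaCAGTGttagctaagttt
Tfrc element 1: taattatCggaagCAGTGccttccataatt
Tfrc element 2: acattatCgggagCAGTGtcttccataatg
Tfrc element 3: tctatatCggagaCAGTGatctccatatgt
Tfrc element 4: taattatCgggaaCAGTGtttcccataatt
By the same rule, 0.120% of 15038 annotated 5′UTRs and 0.697% of 15500 3′UTRs held a match. Among the other iron pathway genes Alas2, in the 5′UTR, and Bola3, in the 3′UTR, held one. This listing left out a chromosome that holds none of the 10 genes, so other pathway genes there could be missed. The shares above count every chromosome.

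Tfrc, the receptor that takes transferrin-bound iron into most cells, lies on chromosome 16 from 32608896 to 32632795, plus strand. It measured 38.2, 28.9, 28.7 and 27.9 CPM in WT 1 to WT 4 and 24.8, 28.4, 20.1 and 25.03 CPM in HKO 1 to HKO 4. WT 1 stood well above the other livers, and HKO 2 lay among the remaining WT livers. The log2 FC was -0.33 (SE 0.13, Padj = 0.181), and -0.21 (Padj = 0.421) without WT 1. Thus both ferritin genes and Tfrc had negative fold changes in HKO livers, and only the ferritin genes separated the genotypes.

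The ratio of Tfr2 to Tfrc, the hepatocyte sensor over the general uptake receptor, did not overlap between genotypes. It was 2.80, 4.03, 4.10 and 4.32 in WT 1 to WT 4 and 5.56, 5.07, 7.13 and 5.50 in HKO 1 to HKO 4. The geometric mean of the ratio was 1.53-fold higher in HKO livers, p = 0.0286 by the two-sided exact permutation test, which is the smallest p that 4 livers against 4 allow, and 0.0857 after adjustment over the 3 ratios. The ratio of Hamp to Tmprss6 was 0.551, 0.967, 1.47 and 1.76 in WT 1 to WT 4 and 2.44, 3.30, 2.01 and 1.07 in HKO 1 to HKO 4. Of the HKO livers, 3 exceeded all WT livers, HKO 4 did not, and the exact permutation p was 0.114 (0.171 adjusted).

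Slc40a1, which encodes ferroportin, lies on chromosome 1 from 45908070 to 45925595, minus strand. It measured 198, 290, 268 and 216 CPM in WT 1 to WT 4 and 278, 216, 280 and 269 CPM in HKO 1 to HKO 4. The genotypes overlapped, with a log2 FC of 0.10 (SE 0.13, Padj = 0.731). WT 1, WT 4 and HKO 2 were the low livers, at 198 to 216 CPM, and the other 5 lay between 268 and 290 CPM. The summed level of 10 markers of Kupffer cells, which export much of the iron of digested red cells, was low in those same livers. It was 115, 147 and 83.8 CPM in WT 1, WT 4 and HKO 2, and 238 to 280 CPM in the other 5. Marco, one of the markers, did not follow this, at 6.51 CPM in WT 4 and 1.62 CPM in HKO 4. None of the 10 markers passed the test between genotypes, and their part in the level of Slc40a1 was not tested.

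Trf, which encodes transferrin, the iron carrier of plasma made by hepatocytes, was the most abundant of the 10 genes. It lies on chromosome 9 from 103208876 to 103230287, minus strand, and measured 11465, 10027, 9457 and 9632 CPM in WT 1 to WT 4 and 10924, 11071, 8965 and 12790 CPM in HKO 1 to HKO 4. The ranges overlapped, and the log2 FC was 0.11 (SE 0.13, Padj = 0.706). WT 1 and HKO 4 were the highest livers of their genotypes for Trf and also for Alb, and HKO 3 was the lowest of all livers for both. Of the 7 plasma carriers of iron and heme 0 passed by edgeR or DESeq2, beside 5.03% and 8.18% of all tested genes. Of these carriers 0 had an unadjusted p under 0.05, beside 19.8% of all tested genes. Hp, which encodes haptoglobin, the carrier of free hemoglobin, came next after Trf at 1253 CPM per kb and had a log2 FC of -0.18 (Padj = 0.465).

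**Figure D4:**
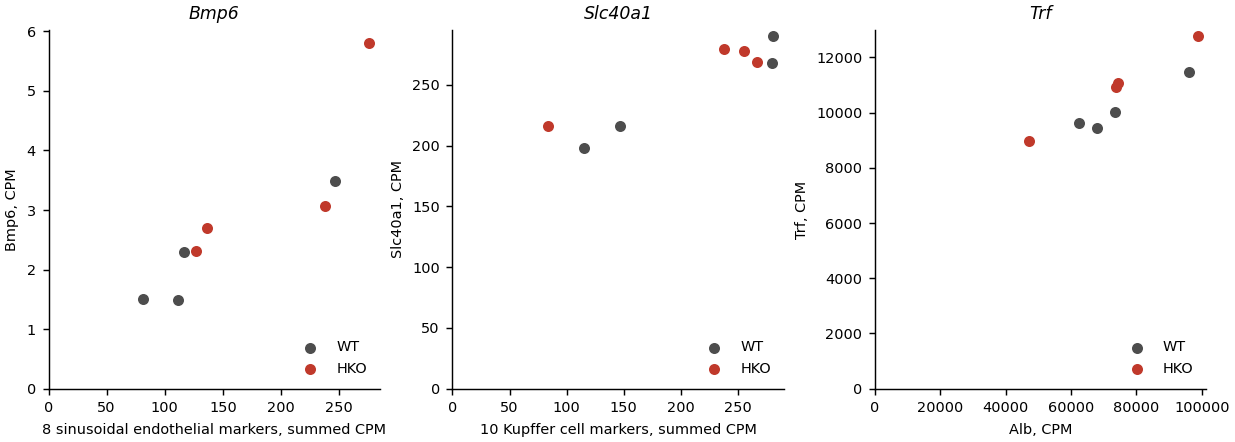
Bmp6, Slc40a1 and Trf in CPM (vertical axes, from 0) against the summed CPM of 8 sinusoidal endothelial markers, the summed CPM of 10 Kupffer cell markers and the CPM of Alb, with a point for each WT (grey) and HKO (red) liver. The livers highest in Bmp6 (5.80 and 3.48 CPM) are those with the most endothelial marker RNA, and the 3 livers with Slc40a1 at or under 216 CPM are those with the least Kupffer cell marker RNA.

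Slc39a14, a transporter that takes iron not bound to transferrin into hepatocytes, was higher in HKO livers. It measured 170, 175, 204 and 185 CPM in WT 1 to WT 4 and 298, 268, 240 and 206 CPM in HKO 1 to HKO 4, and HKO 4, the lowest HKO liver, was just above WT 3, the highest WT liver. The log2 FC was 0.46 (SE 0.11, Padj = 0.0374, and 0.00405 by DESeq2). This call was lost with scaling to the total count (Padj = 0.133) and without any single liver other than HKO 4 and WT 3, at Padj from 0.0531 (without HKO 3) to 0.123 (without WT 2). It was the only called gene of the 12 cellular transporters (8.33%, beside 5.03% of all tested genes), whose median log2 FC was -0.06. Steap4, a metalloreductase as abundant per kilobase as Slc40a1 (74.6 and 74.7 CPM per kb), had a log2 FC of 0.18 (Padj = 0.703).

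The lists for iron regulatory proteins, heme synthesis, heme breakdown and iron-sulfur cluster assembly held 31 tested genes, and 0 passed by edgeR, with 8 at an unadjusted p under 0.05 (19.8% of all tested genes were). Aco1 and Ireb2, which encode the iron regulatory proteins, had log2 FC values of -0.01 and 0.17 (Padj = 0.970 and 0.231). Of the 9 genes of heme synthesis 7 had negative log2 FC values, beside 5993 of the 12395 tested genes, and their median was -0.15. The most abundant of them per kilobase were Cpox (log2 FC -0.21, Padj = 0.190) and Alas1, the rate-limiting enzyme of the liver pathway. Alas1 varied widely, from 190.5 to 466 CPM in WT livers and from 49.9 to 382 CPM in HKO livers (log2 FC -0.51, SE 0.68, Padj = 0.754). Of the heme breakdown genes, Blvrb, which encodes a biliverdin reductase, and Hmox2, a heme oxygenase, were the most abundant, with log2 FC values of -0.37 and 0.26 (Padj = 0.109 and 0.218). Of the 15 genes of iron-sulfur cluster assembly 10 had negative log2 FC values, beside the same 5993 of 12395. Hspa9 and Isca1, the most abundant per kilobase, had log2 FC values of 0.03 and 0.01 (Padj = 0.887 and 0.956), while DESeq2 called the scaffold gene Iscu (Padj = 0.0319 against 0.0611 from edgeR) and the glutaredoxin gene Glrx5 (0.0283 against 0.0570), both lower in HKO livers.

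**Figure D5:**
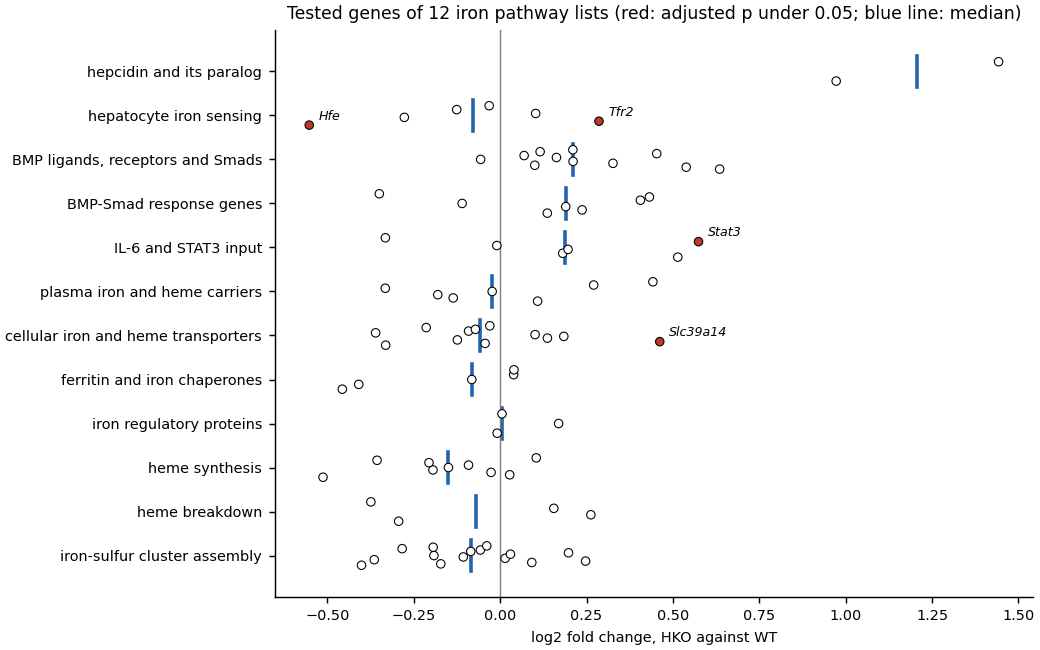
Log2 fold change between HKO and WT livers (horizontal axis) of every tested gene of 12 iron pathway lists (rows), with genes of Padj under 0.05 in red and named and the median of each list as a blue line. The 4 red points are Hfe, below 0, and Tfr2, Slc39a14 and Stat3, above 0, and the remaining 83 genes did not pass.

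Over all 12 lists, 88 of the 89 genes have a row in the table, 87 were tested, 3 were called higher and 1 lower. This is 4.60% of the genes tested, close to the 5.03% of all tested genes, and with DESeq2 it was 8 genes or 9.20%, close to the 8.18% of all tested genes. These counts include the 10 iron genes. Without them 77 genes were tested, of which edgeR called 2 (2.60%) and DESeq2 called 4 (5.19%). The median log2 FC of the lists together was -0.01, beside 0.01 over all genes.

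Levels were set in order on the scale of CPM per kilobase of the longest protein-coding transcript. Other transcript lengths, which could change the order of genes with close values, were not tried. Trf led with a mean of 4100 CPM per kb over the 8 livers. Ftl1, Fth1 and Hamp followed at 1058, 1047 and 778 CPM per kb, and the ranges of these genes over the livers overlapped, with Hamp covering the widest span of the 3, from 234 to 1565 CPM per kb. Slc40a1 and Tmprss6 came next at 74.7 and 58.8 CPM per kb, with overlapping ranges, and then Tfr2 at 41.7 CPM per kb, which overlapped neither neighbour. Hfe and Tfrc had 9.57 and 5.68 CPM per kb with overlapping ranges, and Bmp6 had 0.789 CPM per kb, below the lowest liver of any other gene of the group. In WT livers Hamp stood below both ferritin chains on this scale, at 525 against 1212 CPM per kb for Fth1 and 1207 for Ftl1. In HKO livers its mean was 1031 CPM per kb, against 883 and 909 CPM per kb, and its place above Ftl1 rested on HKO 2: without that liver the means were 853 for Hamp, 830 for Fth1 and 874 CPM per kb for Ftl1. In HKO 4 Hamp stood at 568 CPM per kb, below Fth1 at 947 and Ftl1 at 931.

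No match to the miR-33 seed was found in the longest 3′UTR of any of the 10 genes, nor in those of Hamp2, Stat3 and Slc39a14. Mature miR-33-5p, encoded in an intron of Srebf2, is shown with bases 2 to 8, the seed, in capitals, as RefSeq gives it at chr15:82198127-82198147 (GRCm38.p6, plus strand).
miR-33-5p: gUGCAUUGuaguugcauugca
The letters searched were CAATGCA, the match to bases 2 to 8, and AATGCAA, the match to bases 2 to 7 followed by A. Of 11536 tested genes with an annotated 3′UTR, 16.2% held at least 1 of these.

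Over the 8 livers and 11878 tested genes with a mean of at least 1 CPM, the genes whose log2 CPM followed that of Hamp most closely were Proser2 (Pearson r = 0.97), Smarcd2 (0.97), Ogt (0.96), Spata5 (0.95) and Cnnm3 (0.95). Those most opposed to it were Rhou (-0.97), H2-M3 (-0.96), Eif2b5 (-0.96), Ttll12 (-0.95) and Nudcd3 (-0.95). None of these 10 genes passed the test between genotypes. The values are a description with no test, since they are extremes among many genes over 8 livers that share 2 genotypes, and no other iron gene was among them.

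Of the other cell types, the hepatic stellate cell list had 2 of 8 genes called, beside 5.03% of all tested genes. These were the collagen genes Col1a1 and Col3a1, both lower in HKO livers (log2 FC values -2.81 and -1.87, Padj = 0.00723 and 0.0137). The other 6 were not called. Their log2 FC values ran from -0.48 for Pdgfrb to 0.23 for Reln, and those of Reln and Des were positive. The summed level of the list includes both collagens. It ran from 395 to 554 CPM in WT and from 317 to 437 CPM in HKO livers, ranges that overlap. Of the 6 hepatocyte markers, Cps1, Tat and Serpina1a were higher in HKO livers (log2 FC 1.26, 0.87 and 0.61, Padj = 0.00433, 0.0165 and 0.0244), of which Tat was not called without WT 1 (Padj = 0.0539) nor Serpina1a without WT 1, WT 2, WT 3, HKO 3 or HKO 4 (Padj from 0.0514 to 0.0931). The other hepatocyte markers did not pass: Apoa1, which encodes a major apolipoprotein, had a log2 FC of 0.49 (Padj = 0.155), and Alb and Ttr had log2 FC values of -0.03 and -0.08. The 4 hemoglobin genes listed (Hba-a1, Hba-a2, Hbb-bs and Hbb-bt) summed to 178 and 182 CPM in WT 2 and WT 4 and to 7.55 to 53.0 CPM in the other 6 livers, and the red cell membrane gene Slc4a1 stayed at 0 to 5 counts. WT 1, the liver with the highest Tfrc, had 18.6 CPM of hemoglobin RNA. The 6 lymphocyte markers summed to 1.07 to 3.15 CPM and were not tested.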

How the data were processed

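RNA-Seq of 4 WT and 4 HKO livers was analysed, with genotype and replicate number taken from the labels. The authors deposited estimated counts per gene, assigned by Partek's expectation-maximization method without normalization, and the labels also name STAR, with no version for either. The labels name a small RNA kit and rRNA depletion and give 2 read lengths, so the type of library is uncertain. No genome build is named, and 84.5% of 17789 symbols matched to RefSeq had the same start or end on GRCm38.p6. No value column was left unmapped.

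Counts were rounded and tested with edgeR 4.0.16 in R 4.3.3: TMM scaling, the default expression filter (minimum count 10), robust dispersions and the quasi-likelihood test, with Benjamini-Hochberg adjustment over 12395 genes and a threshold of 0.05. By the titles and column headers the mice differ between libraries, so p-values were taken to measure the spread between mice. The SE of a fold change was taken as its log2 size over the square root of F. CPM used TMM-scaled totals, with a prior count of 2 for log2 CPM. At these totals 3 counts equal 0.160 to 0.246 CPM, a floor that covers counting error only. Ratios were compared by two-sided exact permutation tests. Alternative fits used DESeq2 1.42.0 and voom of limma 3.58.1, other scalings and filters, non-robust and legacy quasi-likelihood fits (the legacy fit was added after the data were seen), the replicate number as a block, Hamp and Hamp2 summed, a pseudocount of 0.5 CPM for ratios, and each liver left out. The models were tested on simulated data. Tests outside R used Python 3.11.15 and scipy 1.17.1, and plots matplotlib 3.10.9.

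UTRs, transcript lengths and iron responsive elements came from GENCODE M21, and promoters and miR-33-5p from RefSeq GRCm38.p6. Hjv and Fdx2 have no matched transcript length. The members and gene lists were chosen with earlier results of these data known. The text names all members, Hamp2, called pathway and marker genes, the 2 most abundant genes per list by CPM per kb, markers at or near 0, and the 5 genes most and the 5 least correlated with Hamp. One marker gene is not reported here.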

Additional observations from a re-analysis of the deposited data

Results flagged for a closer look

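In groups of 4 livers, 3 values stood far from the other livers of their genotype, by a gap that passes Dixon's test for outliers. Tfrc in WT 1 was 38.2 CPM, while the remaining WT livers lay between 27.9 and 28.9 CPM. Slc40a1 in HKO 2 was 216 CPM against 269 to 280 CPM in the other HKO livers, and without HKO 2 its log2 fold change was 0.18. Hjv in WT 3 was 78.5 CPM, while the remaining WT livers lay between 90.9 and 92.0 CPM. Over the 40 groups looked at, chance alone would flag about 2.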

How the results depend on the processing

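The number of iron genes called was 2 by edgeR, 4 with DESeq2, 1 with no expression filter, and 1 to 2 when single livers were left out, where Hfe was called each time. Of the pathway genes 4 were called, against 8 with DESeq2, 7 with total count scaling, and 2 to 6 with single livers left out, where Hfe and Stat3 were called each time. The other alternatives left both counts within 1.5 times. Replicate numbers occur in both genotypes but belong to different mice: deviations of same-numbered livers correlated at -0.15 to 0.01, and none of 4 numbers exceeded 0.1. With the number as a block 3 iron genes (Hfe, Fth1 and Ftl1) were called, and 456 genes in all against 624. The pathway genes called were again 4 in number but a different set, with Stat3 higher and Hfe, Fth1 (adjusted p = 0.0360 from edgeR) and Ftl1 (0.0403) lower, while Tfr2 (0.0922), Slc39a14 (0.0958) and the collagen gene Col3a1 (0.0863) were not called. No log2 fold change of the 10 genes changed sign. Of the 3 ratios, none changed direction or passed after adjustment, and with 4 livers against 3 the exact permutation test cannot go below p = 0.0571. Bmp6, at 1.49 to 5.80 CPM, is the gene whose depth limits it most.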

Other observations

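HKO 2, the liver with the highest Hamp (642 CPM), the highest ferritin of the HKO livers and the lowest Kupffer cell marker sum, also had the most cholangiocyte marker RNA. Epcam was 16.5 CPM and Krt19 16.9 CPM there, against 0.329 to 1.02 CPM and 0.169 to 1.07 CPM in the other 7 livers. Sox9, another gene of that list, was highest in HKO 3 (15.5 CPM). Without HKO 2 the log2 fold change of Hamp was 0.70 (adjusted p = 0.483 from edgeR), and that of Fth1 was -0.55 (adjusted p = 0.0466). The part of these cells in the values of HKO 2 was not tested.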
